A study of Arabidopsis thaliana with 12 samples.

Results

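Diploid Arabidopsis embryos that received a mutant *nrpd1* allele through the pollen (2x *nrpd1*) were compared with diploid embryos of wild-type parents (2x wt). The labels assign 6 of the 12 libraries of the series to this comparison, 3 to each group. In both groups the mother was a diploid Columbia-0 plant, emasculated and then pollinated by hand. The diploid pollen donor was Columbia-0 for 2x wt and, for 2x *nrpd1*, the Columbia mutant that the labels call pol4 and the study calls *nrpd1*. Embryos were dissected at 6 days after pollination (DAP), at the torpedo stage, and washed to remove endosperm, and each library pooled many embryos from crosses made on distinct plants. Because the mother was wild type in both crosses, a 2x *nrpd1* embryo still carried an intact maternal copy of *NRPD1*, so the comparison is of heterozygous with wild-type embryos and not of embryos without the enzyme. The remaining 6 libraries, 3 of 3x wt and 3 of 3x *nrpd1*, came from triploid torpedo embryos at 8 DAP, sired by tetraploid Columbia-0 or tetraploid pol4 plants. They share no library with the diploid comparison and are used below only to show the same genes with the same pair of pollen genotypes. In the study, endosperm stayed largely uncellularized in 3x wt seeds and mostly cellularized in 3x *nrpd1* seeds, and far fewer of the latter aborted. The pollen donor thus also goes with a change of seed development there, so the triploid comparison is not a repeat of the diploid one.

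*NRPD1* encodes the largest subunit of RNA polymerase IV, a plant-specific enzyme that transcribes mainly transposons and repeats. RDR2 copies its transcripts into double-stranded RNA, DCL3 cuts this into small interfering RNAs, and AGO4 with its partners carries these RNAs to chromatin, where DRM2 methylates cytosines (RNA-directed DNA methylation, RdDM). A torpedo embryo has formed its cotyledons, hypocotyl and root meristem, has turned green and is beginning to fill with oil and storage protein.

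A small number of loci stood out between the groups. The sequence just upstream of the 3 that carry most of the description is shown here, because RdDM can act on cytosines in such regions. The windows hold the 175 bases before the annotated start, read 5′ to 3′ on the strand of the gene from the TAIR10.1 assembly of RefSeq, with every CG dinucleotide in capitals. AT5G35935 is an annotated pseudogene, AT2G01422 a noncoding RNA and *SUC1* a sucrose transporter gene.
AT5G35935, chr5:14089892-14090066, minus strand: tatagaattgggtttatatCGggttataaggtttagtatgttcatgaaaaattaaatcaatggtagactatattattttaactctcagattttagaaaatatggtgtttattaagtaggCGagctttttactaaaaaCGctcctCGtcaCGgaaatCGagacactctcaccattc
AT2G01422, chr2:183765-183939, plus strand: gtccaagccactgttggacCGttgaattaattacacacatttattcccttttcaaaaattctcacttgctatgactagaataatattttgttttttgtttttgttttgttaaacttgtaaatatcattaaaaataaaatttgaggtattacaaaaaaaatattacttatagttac
SUC1, chr1:27053855-27054029, plus strand: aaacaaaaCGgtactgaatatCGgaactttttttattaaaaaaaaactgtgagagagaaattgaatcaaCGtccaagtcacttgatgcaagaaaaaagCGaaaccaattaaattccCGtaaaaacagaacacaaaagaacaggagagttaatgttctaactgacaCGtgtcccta
The windows of AT5G35935 and *SUC1* each hold 6 CG dinucleotides and that of AT2G01422 holds 1, against a median of 3 over the windows of 32834 genes. Of all windows, 23.9% hold at least 6 and 21.5% hold at most 1, so none of the 3 counts is rare. Cytosines outside CG, on which RdDM can also act, were not counted, and methylation itself was not measured here.

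The deposited values are RPKM, reads per kilobase of exon scaled by the reads of the library. The step of 1 read in low values put the 6 libraries at an estimated 8532686 to 13602669 reads. The study lists several times more mapped reads for each of them, by a similar factor in every library. Its mean count of AT5G35935 in 2x *nrpd1* is also higher than the reads given below. This depth, and every read number or floor in reads below, is therefore an estimate that may be too low. For a gene with 1000 bp of exon, 3 reads equal 0.221 to 0.352 RPKM at that depth, and counting error alone leaves values below this without order. Of 33602 genes in the table, 17236 to 17542 reached 1 RPKM in a library, 9813 to 10382 reached 10 RPKM and 1174 to 1215 reached 100 RPKM. The libraries resembled each other closely, with Pearson's r of log2 values between 0.972 and 0.988 across genes for every pair. The lowest r, 0.972, was between replicates 1 and 3 of 2x *nrpd1*, and so lay within a group. Replicate 3 of 2x *nrpd1* stood more than 2-fold above the median of the other 5 libraries in 227 genes, against 42 to 117 genes for the others, and its deviations correlated with exon length (Spearman's rho -0.26). Values without this library are given beside the results that it was found to move most.

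Single genes of photosynthesis and the many genes of ribosomal proteins were prominent in the torpedo embryo. The highest RPKM belonged to *LHCB1.3* (AT1G29930), which encodes a chlorophyll-binding protein of the photosystem II antenna, with 10137, 10739 and 7215 RPKM in 2x wt and 8477, 10035 and 7643 RPKM in 2x *nrpd1*. The groups overlapped throughout, and the log2 fold change was -0.07 (SE 0.22). Next came AT5G60390, annotated as an elongation factor Tu family gene, with means of 5161 ± 451 RPKM for 2x wt and 5138 ± 161 RPKM for 2x *nrpd1* (SD, n = 3). The small subunit of Rubisco, the enzyme that fixes carbon dioxide, was read mostly from *RBCS1A*, with 2781 ± 209.9 RPKM for 2x wt and 2894 ± 252 RPKM for 2x *nrpd1*. The 10 genes of highest mean RPKM also included a glycine-rich protein gene (AT1G04660), a thioredoxin superfamily gene (AT3G52960), a lipid-transfer family gene (AT4G30880), ribosomal protein genes (AT5G18380 and AT5G20290) and the uncharacterized AT2G01021, and their log2 fold changes lay between -0.07 and 0.33. AT2G01021 was the least even of them, with 2022 to 6059 RPKM over the 6 libraries. The 10 most abundant genes of a library took 5.00 to 6.02% of its summed RPKM, and the 327 genes annotated as ribosomal proteins took 17.4% in 2x wt and 17.2% in 2x *nrpd1*. The 21 nuclear photosynthesis genes of the list described below took 3.35% and 3.37%.

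The tissue label was borne out by markers. The epidermal gene *PDF1*, the cotyledon polarity gene *FIL* at 170.3 to 208 RPKM, and the embryo regulator *LEC1* were all high, while 16 of 20 endosperm markers were under 1 RPKM in 2x wt and 9 of them, among them *AGL36*, *PHE1* and *YUC10*, were at 0 in all 6 libraries. The summed endosperm markers ranged from 66.7 to 76.1 RPKM in 2x wt and from 67.9 to 75.9 RPKM in 2x *nrpd1*, and most of this was *SUC5*, a sucrose transporter gene, with 51.8 to 65.0 RPKM. The seed coat markers summed to 181 to 191 RPKM in 2x wt and to 195 to 216 RPKM in 2x *nrpd1*, ranges that did not overlap. Of their 15 genes, 10 were under 1 RPKM in 2x wt, among them the defining markers *BAN*, *TT2* and *TT8*, and the sum was mostly *SBT1.7*, a seed coat mucilage protease, with 136 to 147 RPKM in 2x wt and 149 to 166 RPKM in 2x *nrpd1* (log2 fold change 0.17, SE 0.08, adjusted p = 0.868). The part of seed coat RNA in the results below was not tested, and in pooled tissue fewer cells of a type and less RNA per cell cannot be told apart.

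Very little separated the groups. The test was limma on log2(RPKM + 0.5), a scale that understates changes of low values, and it took in the 17472 genes that reached 1 RPKM in 3 or more libraries. To be called, a gene had to differ by more than 1 on the log2 scale with a Benjamini-Hochberg adjusted p under 0.05. None was called (0%), and the smallest adjusted p was 0.0841. With a test on read counts (DESeq2) and the same thresholds, the study called AT5G35935, *SUC1*, *bZIP58* and *DOT1*. It also called *ESM1*, *MLS*, AT2G41640, AT5G24240 and the noncoding RNA AT4G04223. All of these are described below, and each had the direction that the study reports. The 0 is thus the outcome of limma on RPKM. At an unadjusted p under 0.05 there were 984 genes (5.63% of those tested), of which 560 (3.21%) were higher and 424 (2.43%) lower in 2x *nrpd1*. The libraries of the groups did not overlap in 944 genes higher (5.4%) and 996 genes lower (5.7%) in 2x *nrpd1*, and this split was 745 higher to 1216 lower with RPKM as deposited, without rescaling. Fitted log2 fold changes had a median of 0.00, and from their 5th to their 95th percentile they ran from -0.31 to 0.30. By chromosome the medians lay between -0.01 and 0.01. The fitted change exceeded 2-fold in 73 genes (0.418%), 37 higher and 36 lower. Without replicate 3 of 2x *nrpd1*, 19 genes (0.11% of 17303) were called, as described further below. With no filter on low values, or with all 12 libraries in one fit, AT5G35935 was the single gene called.

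**Figure D1:**
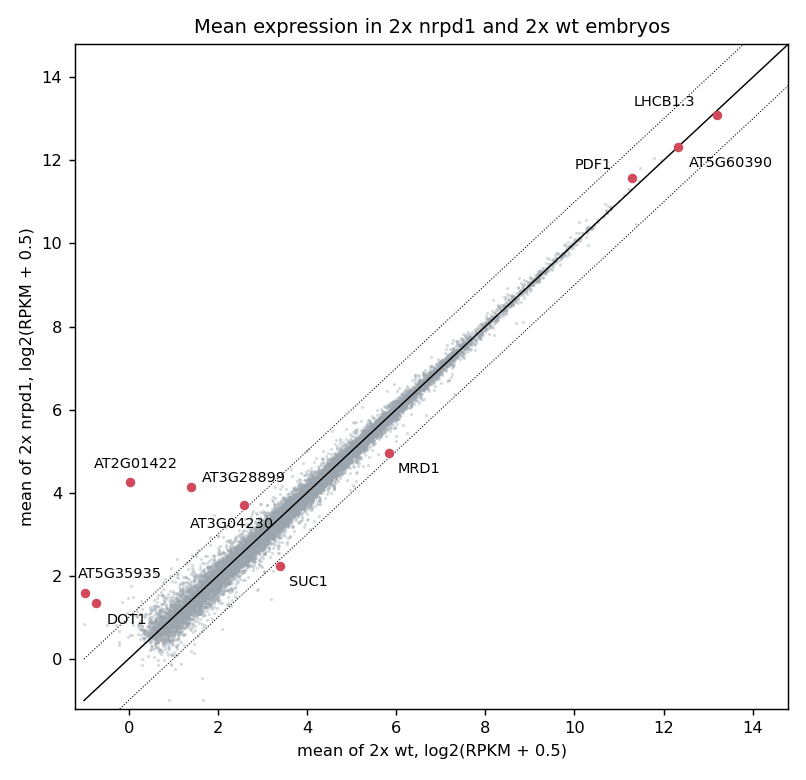
Mean expression in 2x *nrpd1* against 2x wt, each axis as log2(RPKM + 0.5) of the mean of 3 libraries. Grey points are the 17472 genes tested, the solid line marks equality, the dotted lines a 2-fold change, and red points are genes named in the text. Genes of high RPKM lie close to the line and the few distant points lie at low RPKM.

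Missing calls do not show that levels were equal, so the confidence intervals were read as well. On the log2(RPKM + 0.5) scale, the 95% interval lay inside a 2-fold change for 16378 genes (93.7%). It lay inside a 1.5-fold change for 13086 genes (74.9%). The added 0.5 narrows changes of low values, so at low RPKM these intervals do not bound the fold change of RPKM itself. Precision followed the level. Among genes under 2 RPKM, 65.2% had an interval inside 2-fold and 5.46% inside 1.5-fold. Among the 1188 genes at 100 RPKM or more the shares were 99.1% and 94.5%. Of the 1094 genes whose interval reached beyond 2-fold, 828 (75.7%) had a mean under 5 RPKM. Among genes at 2 to 5 RPKM, 87.5% had an interval inside 2-fold on this scale.

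**Figure D2:**
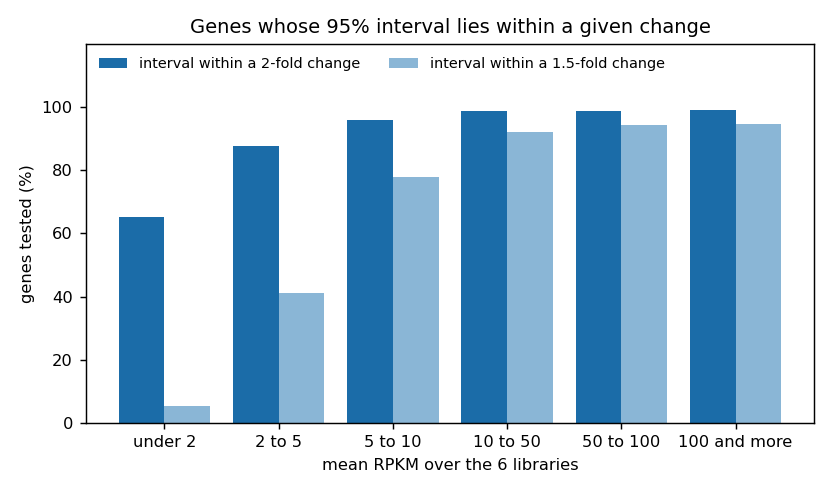
Share of genes tested whose 95% interval for the change between 2x *nrpd1* and 2x wt lay within 2-fold (dark bars) or within 1.5-fold (light bars), by mean RPKM over the 6 libraries. Intervals are on the log2(RPKM + 0.5) scale, which narrows changes at low RPKM. The dark bars go from 65.2% under 2 RPKM to 99.1% at 100 RPKM and more.

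*NRPD1* itself (AT1G63020, chromosome 1) was read at 2.69, 2.42 and 2.43 RPKM in 2x wt and at 4.48, 3.37 and 2.82 RPKM in 2x *nrpd1*. All 3 libraries with the mutant father lay above all 3 controls, but the log2 fold change of 0.43 (SE 0.19) did not pass the test (adjusted p = 0.868) and was 0.28 without replicate 1 of 2x *nrpd1*. The value per gene adds both parental alleles and any transcript of the mutant allele, so it does not check the labels. Its neighbour AT1G63010, a transporter family gene, had a log2 fold change of -0.13 (SE 0.16).

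In the rest of the RdDM pathway no gene stood apart between the groups. All 23 genes of the list were tested, none had an unadjusted p under 0.05 (5.63% of all genes did), all 23 intervals lay inside 2-fold, and the median log2 fold change was 0.01 against 0.00 over all genes. *AGO4*, the effector that binds the small RNAs, was the most abundant with 143 to 159 RPKM in 2x wt and 141 to 172 RPKM in 2x *nrpd1*. *IDN2*, which binds double-stranded RNA at target loci, was at 111 to 129 and 96.3 to 117 RPKM. *NRPE1*, the largest subunit of polymerase V, stood at 24.7 to 28.7 RPKM in 2x wt and 22.8 to 30.5 RPKM in 2x *nrpd1*, and *RDR2* at 17.0 to 18.5 and 16.2 to 21.8 RPKM. *SHH1*, which recruits polymerase IV to chromatin, had the lowest log2 fold change of the list, -0.24 (SE 0.13). By RPKM *NRPD1* was among the scarcest members, near *CLSY2* and *CLSY3*, chromatin remodelers of the pathway, at 0.928 to 1.79 and 1.06 to 1.41 RPKM.

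Maintenance methylation and demethylation genes likewise showed no difference beyond the spread of the libraries. Of 13 genes, 12 were tested, 0 had an unadjusted p under 0.05, and all 12 intervals lay inside 2-fold. *MET1*, the maintenance methyltransferase of CG sites, stood at 32.2 to 39.1 RPKM in 2x wt and 28.9 to 38.2 RPKM in 2x *nrpd1*. The demethylase *ROS1*, whose own promoter is a known RdDM target, stood at 39.8 to 43.7 and 33.9 to 44.4 RPKM (log2 fold change -0.09, interval -0.33 to 0.15). Among loci known to be silenced through RdDM in vegetative tissue, *SDC* stood at 1.21 to 1.69 RPKM in 2x wt and 0.995 to 2.21 RPKM in 2x *nrpd1*. *FWA* was under 0.11 RPKM in every library. *QQS* was at 0 in all 6 libraries. Annotated pseudogenes, of which 105 of 3911 were expressed enough to be tested, had 3 genes higher and 4 lower at an unadjusted p under 0.05, with a median log2 fold change of -0.02.

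One pseudogene was at or near 0 in 2x wt and was read in every library of 2x *nrpd1*. AT5G35935 lies on chromosome 5 (14083388 to 14089891 in TAIR10.1, minus strand) as a single annotated exon of 6504 bp. It was at 0, 0.0236 and 0 RPKM in 2x wt (0, 2 and 0 reads) and at 3.13, 2.44 and 1.98 RPKM in 2x *nrpd1* (229, 216 and 110 reads). The groups were far apart, at least 62.5-fold higher in 2x *nrpd1* when 2x wt is set to a floor of 3 reads per library, a bound that covers counting error only. The fitted log2 fold change was 2.56 (SE 0.29, adjusted p = 0.0841), with an interval from 1.89 to 3.22. In triploid embryos it was called in the same direction, at 0.804, 0.524 and 0.516 RPKM in 3x wt and 2.72, 2.87 and 1.75 RPKM in 3x *nrpd1* (log2 fold change 1.40, adjusted p = 0.0123). The libraries of 3x *nrpd1* did not overlap those of 3x wt, and every 3x wt library lay above every 2x wt library. The difference of the donor effect between ploidies, -1.08 (SE 0.32), passed the interaction test (adjusted p = 0.048). Nearby, the small pseudogene AT5G35932 followed the pattern at 0 reads in each 2x wt library against about 9, 5 and 2 reads, too few to be tested. The flanking coding genes AT5G35930 and AT5G35940, an acyl-activating enzyme family gene and a lectin gene, had log2 fold changes of 0.08 (SE 0.13) and -0.29 (SE 0.16).

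The largest fitted increase belonged to a noncoding RNA. AT2G01422 (chromosome 2, 183940 to 184734, plus strand) lies between the auxin transporter gene *PIN4* and the homeobox gene *HB17*. It was at 0.199, 1.35 and 0 RPKM in 2x wt (2, 14 and 0 reads) and at 8.71, 30.2 and 17.0 RPKM in 2x *nrpd1* (78, 327 and 115 reads). Every 2x *nrpd1* library was above every 2x wt library, although the 2x *nrpd1* libraries spread over a wide range. The log2 fold change was 4.30 (SE 0.54, adjusted p = 0.0921). In triploid embryos the RNA was at 0 in all 3 libraries of 3x wt and at 36.8, 5.78 and 55.8 RPKM in 3x *nrpd1*, and it was called (log2 fold change 5.56, adjusted p = 0.00373). Its neighbours differed less, with log2 fold changes of 0.25 (SE 0.13) for *PIN4* and -0.26 (SE 0.24) for *HB17*. It was called in diploid embryos when replicate 3 of 2x *nrpd1* was left out (adjusted p = 0.0417).

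*SUC1* (AT1G71880, chromosome 1, 27054030 to 27056464, plus strand), a proton symporter that moves sucrose into cells, was lower in 2x *nrpd1*. It stood at 9.45, 9.71 and 10.9 RPKM in 2x wt and at 3.48, 3.57 and 5.63 RPKM in 2x *nrpd1*. The 2x wt libraries were tight and every 2x *nrpd1* library lay below them. The log2 fold change was -1.16 (SE 0.18, interval -1.56 to -0.76, adjusted p = 0.249), and without replicate 3 of 2x *nrpd1* it was -1.36 and called (adjusted p = 0.0155). In triploid embryos *SUC1* was called lower as well, from 10.1, 7.09 and 7.46 RPKM in 3x wt to 4.41, 3.28 and 0.647 RPKM in 3x *nrpd1* (log2 fold change -1.65, adjusted p = 0.0426), and the difference of the donor effect between ploidies did not pass the interaction test (-0.53, SE 0.53, adjusted p = 0.55). The gene directly downstream, *SUC5*, encodes a closely related transporter and stood at 65.0, 53.3 and 52.9 RPKM in 2x wt and 51.8, 55.6 and 63.2 RPKM in 2x *nrpd1* (log2 fold change 0.02, SE 0.11). *SUC2*, *SUC3* and *SUC4* had log2 fold changes of -0.16, 0.08 and 0.04, and *SUC8* and *SUC9* were at 0 in all 6 libraries.

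**Figure D3:**
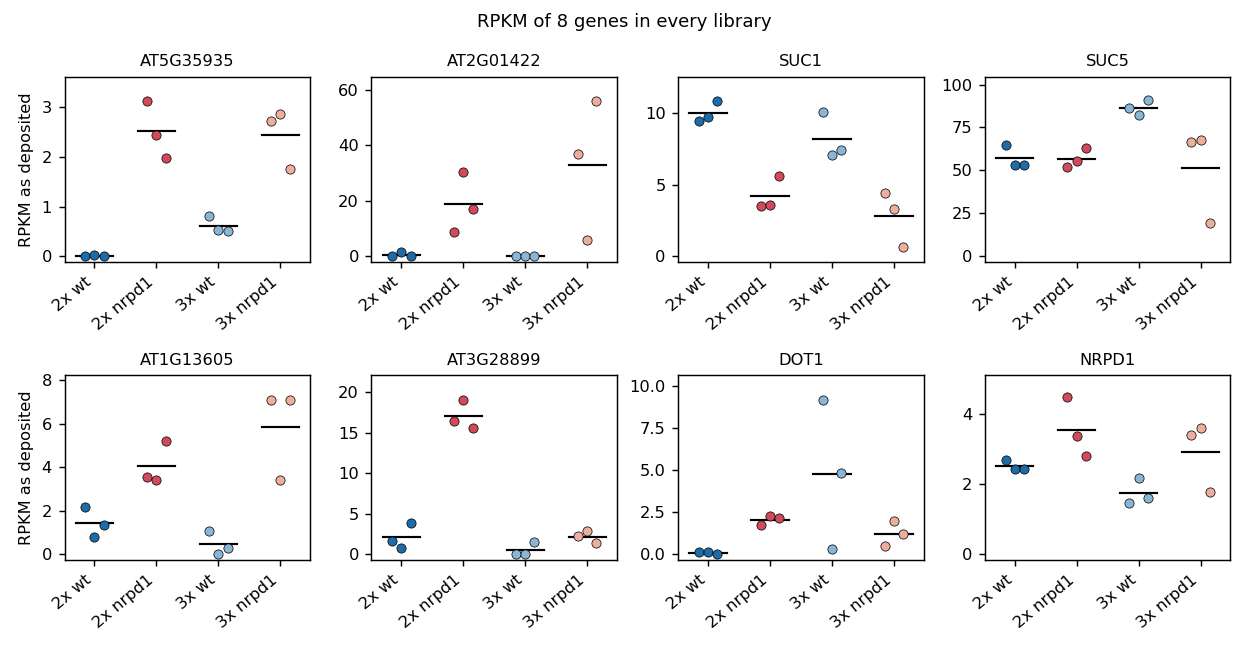
RPKM as deposited of 8 genes in each of the 12 libraries, by group. Points are libraries, horizontal lines are means of 3, and each panel has its own axis starting at about 0. AT5G35935, AT2G01422 and AT1G13605 are higher and *SUC1* is lower in the *nrpd1* group at both ploidies, while *SUC5* at the next position overlaps between the diploid groups.

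Of 17472 genes, 32 had a fitted change above 2-fold and groups that did not overlap, 18 higher and 14 lower in 2x *nrpd1*. In triploid embryos 30 of them were tested, 17 had the same direction, and 4 were called in that direction, namely AT5G35935, AT2G01422, *SUC1* and AT1G13605. Over all genes 3.18% were called higher and 6.5% lower with the *nrpd1* father at this ploidy. Across the 971 genes with an unadjusted p under 0.05 in diploid embryos that were tested in both, 51.6% had the same direction in triploid embryos, against 51.1% of all 17040 genes tested in both. The fold changes of the ploidies had an r of 0.05 across those genes, which are not independent replicates and share the libraries of each comparison.

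AT1G13605 encodes a defensin-like protein, a small secreted cysteine-rich peptide. It was at 2.18, 0.812 and 1.34 RPKM in 2x wt and 3.57, 3.42 and 5.20 RPKM in 2x *nrpd1* (log2 fold change 1.29, SE 0.28, adjusted p = 0.634), and its triploid log2 fold change was 2.84 (adjusted p = 0.00835). Nearby on the chromosome lies *bZIP58* (AT1G13600), a leucine-zipper transcription factor gene, with 0.580, 0.450 and 0.930 RPKM in 2x wt and 3.25, 1.40 and 1.03 RPKM in 2x *nrpd1* (log2 fold change 0.98, SE 0.37, adjusted p = 0.854). In triploid embryos *bZIP58* was called higher too, at 0.187, 0 and 0 RPKM in 3x wt and 2.78, 1.19 and 1.02 RPKM in 3x *nrpd1* (log2 fold change 1.87, adjusted p = 0.0157). Both genes were low, and in both all 3 libraries of 2x *nrpd1* lay above those of 2x wt.

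Further genes on the higher side differed in how they stood in triploid embryos. AT3G04230, annotated in the ribosomal protein S5 domain family, stood at 5.44, 5.04 and 6.01 RPKM in 2x wt and 15.2, 11.0 and 11.5 RPKM in 2x *nrpd1* (log2 fold change 1.14, SE 0.14, adjusted p = 0.0841). In triploid embryos it was at 10.9 to 20.8 RPKM with either father (log2 fold change 0.14). *DOT1* (AT2G36120), a glycine-rich protein gene that in Arabidopsis is needed for leaf vein patterning, had 3, 3 and 0 reads in 2x wt and 26, 41 and 24 reads in 2x *nrpd1*, at least 10.4-fold higher against the same floor. Its log2 fold change was 2.1 (SE 0.29, adjusted p = 0.183), and in triploid embryos it was -1.08 with a wide spread among the 3x wt libraries, from 0.32 to 9.18 RPKM. AT3G28899 was at 1.68, 0.812 and 3.92 RPKM in 2x wt and 16.4, 19.1 and 15.5 RPKM in 2x *nrpd1* (log2 fold change 2.93, SE 0.35, adjusted p = 0.0841). In triploid embryos it was at 0, 0 and 1.54 RPKM in 3x wt and 2.28, 2.86 and 1.47 RPKM in 3x *nrpd1*, higher but not called (log2 fold change 1.71, adjusted p = 0.0763). AT3G28899 lies on the opposite strand inside AT3G28900, a ribosomal protein gene at 256 to 318 RPKM, and the kit of the study does not mark strand, so reads of the pair cannot be told apart. AT3G28900 itself had a log2 fold change of -0.10 (SE 0.09).

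The other genes on the higher side were of mixed kinds, and most were at low RPKM. *GSTU4*, a glutathione transferase of detoxification, was at 0.787, 0.339 and 0.584 RPKM in 2x wt and 2.65, 1.79 and 2.46 RPKM in 2x *nrpd1* (log2 fold change 1.41, SE 0.27). It was called in the opposite direction in triploid embryos (log2 fold change -1.52, adjusted p = 0.00586). *ESM1*, which in Arabidopsis affects the breakdown products of glucosinolates, was at 0.29 to 0.36 RPKM in 2x wt and 1.09 to 1.62 RPKM in 2x *nrpd1* (log2 fold change 1.1, SE 0.29). AT2G41640, a glycosyltransferase gene, was at 0.59 to 2.22 and 3.97 to 5.50 RPKM, and the noncoding RNA AT4G04223 at 2.44 to 3.40 and 4.29 to 8.96 RPKM, with log2 fold changes of 1.44 (SE 0.33) and 1.08 (SE 0.26). For AT2G07674, an uncharacterized gene with a log2 fold change of 1.42 (SE 0.54), the value rested on replicate 3 of 2x wt at 2.38 RPKM against 11.2 to 27.2 RPKM in the other 5, and the value without that library was 0.72. AT1G24792, a transcribed pseudogene, was at 0.07 to 0.38 RPKM in 2x wt and 1.06 to 1.46 RPKM in 2x *nrpd1* (log2 fold change 1.31, SE 0.32), and the uncharacterized AT5G66607 had 0, 3 and 3 reads against about 9, 14 and 9 (at least 3.59-fold higher). The proline tRNA AT1G28750 had 0 reads in each 2x wt library and 1 read in each 2x *nrpd1* library, too few to compare. AT5G24240, a phosphatidylinositol 4-kinase family gene that the study names, stayed below the level needed for the test, at 0.233, 0.129 and 0.178 RPKM in 2x wt and 0.597, 0.803 and 0.936 RPKM in 2x *nrpd1*. Its groups did not overlap, with 7, 4 and 4 reads against 16, 27 and 19. The smallest adjusted p among the tested others of this paragraph was 0.545, for *GSTU4*.

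On the lower side *MRD1* (AT1G53480) had one of the smallest p-values of the whole comparison. It stood at 56.5, 61.0 and 52.1 RPKM in 2x wt and 30.9, 32.1 and 28.1 RPKM in 2x *nrpd1*, with groups far apart relative to their spread (log2 fold change -0.86, SE 0.10, adjusted p = 0.0841). It overlaps *HEI10* (AT1G53490), a meiotic crossover gene on the opposite strand, which stood at 32.9, 36.2 and 32.6 RPKM against 23.5, 21.5 and 19.7 RPKM (log2 fold change -0.62, SE 0.10, adjusted p = 0.304). Without strand the reads of *MRD1* and *HEI10* cannot be assigned to one of them. In triploid embryos every 3x *nrpd1* library lay above every 3x wt library for both genes, with *MRD1* at 39.0 to 45.0 RPKM in 3x wt and 53.0 to 59.2 RPKM in 3x *nrpd1*. The donor effect on *MRD1* differed between the ploidies by 1.27 (SE 0.21, interaction adjusted p = 0.00228).

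Several of the other large differences on the lower side rested on few reads. AT4G25707, annotated as a splicing factor subunit, was at 6.44, 6.24 and 7.75 RPKM in 2x wt and 2.89, 4.18 and 0.953 RPKM in 2x *nrpd1* (log2 fold change -1.33, SE 0.37), and the pseudogene AT1G31900 was at 2.15 to 3.27 RPKM in 2x wt against 0.688, 0 and 0 RPKM (log2 fold change -2.20, SE 0.39). Replicate 3 of 2x *nrpd1* was the lowest of the 6 libraries in AT4G25707, in AT3G51410, a gene of unknown function (log2 fold change -1.16, SE 0.34), and in AT1G02350, a protoporphyrinogen oxidase-like gene (log2 fold change -1.17, SE 0.49). Without that library the values were -0.84 for AT4G25707, -0.80 for AT3G51410 and -0.51 for AT1G02350. AT3G54880, a zinc finger gene, was at 7.39 to 10.3 RPKM in 2x wt and 2.29 to 5.46 RPKM in 2x *nrpd1* (log2 fold change -1.15, SE 0.26). The proline tRNAs AT1G45234 and AT1G28940, the *MIR833a* precursor and AT5G23908 had at most 5 reads in any library, so no fold is given for them. AT3G54880, AT1G31900 and AT2G41640 overlap other annotated genes, whose reads cannot be told apart from theirs without strand. *MLS*, malate synthase of the glyoxylate cycle, was at 2.58, 2.58 and 3.50 RPKM in 2x wt and 1.24, 1.82 and 1.15 RPKM in 2x *nrpd1* (log2 fold change -0.81, SE 0.22, adjusted p = 0.779). Its partner *ICL*, isocitrate lyase, was too low to be tested, and *PCK1*, which feeds gluconeogenesis, stood at 58.2 to 65.6 and 53.8 to 62.6 RPKM.

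Genes that pattern the embryo differed little. Of 23 genes of the shoot meristem and of organ polarity, 21 were tested, 1 had an unadjusted p under 0.05, and 20 intervals lay inside 2-fold. *STM*, the homeobox gene that keeps the shoot meristem undifferentiated, was that gene, at 4.30, 4.51 and 4.35 RPKM in 2x wt and 6.38, 5.29 and 5.07 RPKM in 2x *nrpd1* (log2 fold change 0.33, SE 0.14, adjusted p = 0.868). *WUS*, the organizer of the stem cells, was at 0.54 to 1.55 RPKM over the 6 libraries and was not tested, and *CLV3*, the peptide made by those stem cells, had the widest interval of its list (log2 fold change 0.44, interval -0.18 to 1.05, and 0.23 without replicate 1 of 2x *nrpd1*). *KNAT1*, a homeobox gene of the same family as *STM*, was the lowest member at -0.23 (SE 0.14). The leaf polarity genes were higher in RPKM, with the adaxial gene *PHB* at 47.6 to 52.6 and 44.0 to 62.1 RPKM and the abaxial gene *FIL* at a log2 fold change of 0.11 (SE 0.09).

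The root and vascular genes gave a similar picture. All 12 were tested, their intervals lay inside 2-fold, and the median log2 fold change was -0.01. *PLT1* and *PLT2*, which specify the root stem cell niche, were at 9.16 to 11.8 and 5.60 to 6.03 RPKM over the 6 libraries, with log2 fold changes of -0.01 and 0.01. The auxin response factor *MP* was at 68.4 to 70.7 RPKM in 2x wt and 58.4 to 77.1 RPKM in 2x *nrpd1*. Its target *TMO5*, which drives vascular divisions, was the exception, at 18.5, 17.0 and 18.5 RPKM against 16.0, 15.7 and 11.9 RPKM (log2 fold change -0.29, SE 0.13, adjusted p = 0.868). Without replicate 3 of 2x *nrpd1* its value was -0.15, and no gene of the list was then lower at an unadjusted p under 0.05. Another target, *TMO7*, had the largest positive value of the list (0.29, SE 0.18), with overlapping groups.

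In the epidermis list all 9 genes had intervals inside 2-fold. *PDF1*, a secreted protein of the outer cell layer, was the one with an unadjusted p under 0.05, with 2314, 2431 and 2758 RPKM in 2x wt and 3301, 3140 and 2722 RPKM in 2x *nrpd1*. By deposited RPKM the lowest 2x *nrpd1* library lay just below the highest 2x wt library, and the log2 fold change was 0.31 (SE 0.13, adjusted p = 0.868), or 0.08 with quantile normalization. *ATML1* and *PDF2*, the homeobox genes that set epidermal identity, had log2 fold changes of -0.10 (SE 0.09) and -0.04 (SE 0.10). Of 3 suspensor and early embryo genes, *WOX8* was too low to be tested, while *WOX9* and *WOX2* had log2 fold changes of 0.14 (SE 0.09) and -0.13 (SE 0.28).

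Cell proliferation genes had narrow intervals, all inside 2-fold. All 19 cell cycle and replication genes were tested, 0 had an unadjusted p under 0.05, and the log2 fold changes ran from -0.09 for *CYCD3;1*, a cyclin of cell cycle entry, to 0.14 for *PCNA1*, the replication clamp. *CYCB1;2*, a mitotic cyclin, was at 76.3, 77.3 and 83.8 RPKM in 2x wt and 81.8, 76.8 and 77.9 RPKM in 2x *nrpd1*, with an interval from -0.14 to 0.18. The mini-chromosome maintenance genes *MCM2* to *MCM7*, which unwind replication origins, had log2 fold changes of 0.00 to 0.06.

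Histone genes had a median above 0. Of 43 tested, all had intervals inside 2-fold, 5 were higher at an unadjusted p under 0.05 (3.21% of all genes were) and 0 were lower, and the median log2 fold change was 0.14 against 0.00 over all genes. The 5 included the H2A genes *RAT5*, at 74.3, 65.4 and 68.5 RPKM in 2x wt and 85.1, 80.0 and 84.6 RPKM in 2x *nrpd1* (log2 fold change 0.29, SE 0.08), and *HTA13*, at 314 to 338 and 351 to 393 RPKM (0.20, SE 0.08). Their groups did not overlap. The median of the list was 0.11, 0.08 and 0.10 with RPKM as deposited, with quantile normalization and with the exon-length trend removed, and 0.06 without replicate 3 of both groups. Ribosomal protein genes, by contrast, had a median of 0.01 over 306 tested genes, with 3 higher and 2 lower at an unadjusted p under 0.05. The sign of their median depended on the scaling, with -0.01 with RPKM as deposited and -0.04 with quantile normalization.

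**Figure D4:**
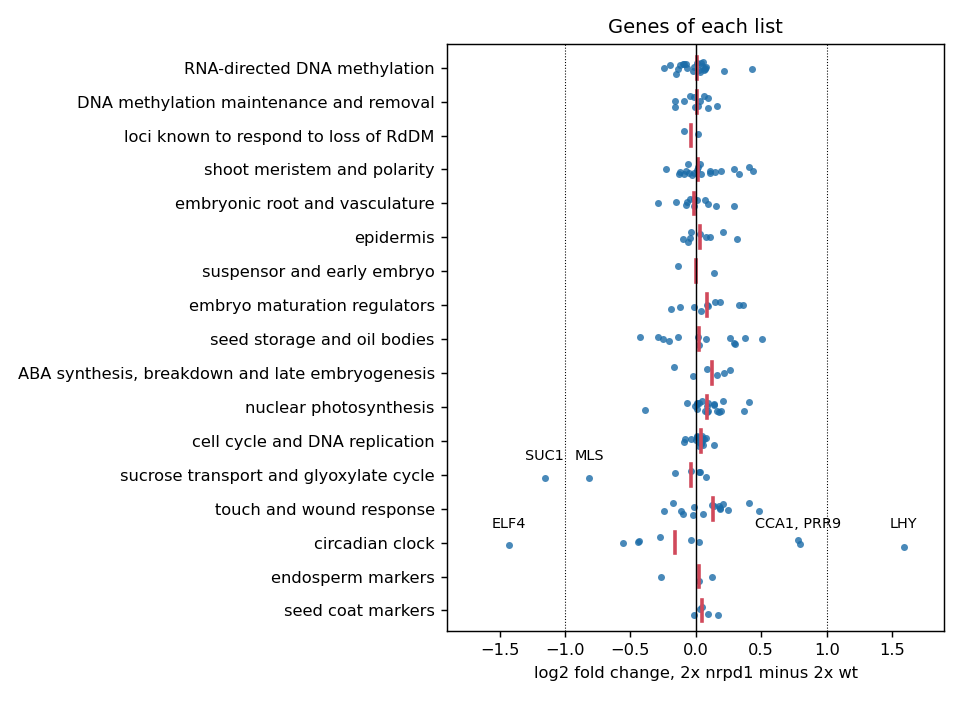
Log2 fold change of 2x *nrpd1* against 2x wt for each tested gene of 17 lists. Blue points are genes, red bars are list medians, and dotted lines mark a 2-fold change. The points farthest from 0 are *SUC1*, *MLS* and the clock genes *LHY*, *CCA1*, *PRR9* and *ELF4*.

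Genes of seed filling were read in both groups. The maturation regulators were well expressed: *LEC1*, a subunit of a CCAAT-binding factor that promotes embryo identity, stood at 208, 196 and 140.3 RPKM in 2x wt and 245, 254 and 174 RPKM in 2x *nrpd1* (log2 fold change 0.33, SE 0.20). *L1L*, its close relative, had the largest value of the list at 0.36 (SE 0.17), or 0.21 without replicate 2 of 2x *nrpd1*, and *WRI1*, which switches on fatty acid synthesis, was at 165 to 182 and 172 to 204 RPKM (0.19, SE 0.10). Among B3 factors of seed maturation, *ABI3* was at 149 to 157 and 138 to 166 RPKM and *FUS3* at 36.7 to 54.8 and 44.0 to 49.4 RPKM. All 10 tested members of the list had intervals inside 2-fold and 0 had an unadjusted p under 0.05. The lowest was *ABI5*, a leucine-zipper factor of ABA signaling, at -0.19 (SE 0.33), with 7.61 to 19.9 RPKM in 2x *nrpd1*.

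Oil-body genes were ahead of storage protein genes in level. *OLEO3* was the most abundant, with 1007, 888 and 963 RPKM in 2x wt and 1162, 1203 and 1075 RPKM in 2x *nrpd1*, groups that did not overlap (log2 fold change 0.29, SE 0.10, adjusted p = 0.838). *OLEO1* was at 360.4, 252 and 252 RPKM in 2x wt and 386, 434 and 372 RPKM in 2x *nrpd1*, and had the largest value of the list (0.50, SE 0.15, adjusted p = 0.838). These 2 oleosin genes, which coat oil bodies, were the ones with an unadjusted p under 0.05 among 13 tested. The storage proteins were uneven among replicates. The 2S albumin gene *SESA1* was at 187, 157 and 200.2 RPKM in 2x wt and 87.1, 169 and 206 RPKM in 2x *nrpd1*, and the 12S globulin gene *CRA1* at 216, 173 and 184 RPKM against 96.4, 229 and 175 RPKM. Replicate 1 of 2x *nrpd1* was the lowest library in both, and the intervals of the list reached past 2-fold in 4 genes, including *CRC* and *SESA5*. The late genes *EM1*, *EM6*, *RAB18* and *DOG1* had at most 0.38 RPKM in any library.

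ABA genes were mostly low. Of 13 genes, 6 were tested, 0 had an unadjusted p under 0.05 and 5 intervals lay inside 2-fold. *ABA2*, a dehydrogenase of ABA synthesis, was at 22.6 to 26.3 RPKM in 2x wt and 25.7 to 29.4 RPKM in 2x *nrpd1* (log2 fold change 0.22, SE 0.10). *CYP707A1*, which breaks ABA down, was at 14.0 to 19.3 and 14.7 to 19.1 RPKM, while its relative *CYP707A2* was under 0.1 RPKM in every library. *NCED9*, a dioxygenase of ABA synthesis in seeds, was at 0.43 to 1.72 RPKM over the 6 libraries, and its interval of -0.56 to 1.09 shows how little can be said at such levels.

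Nuclear genes of photosynthesis had 0 of 21 members at an unadjusted p under 0.05 and a median of 0.09, and several antenna genes were uneven among replicates. *LHCB1.1* was at 1707, 1456 and 537 RPKM in 2x wt and 1670.0, 1934 and 908 RPKM in 2x *nrpd1* (log2 fold change 0.40, SE 0.44), so replicate 3 was the lowest library of each group. *LHCB2.1*, another antenna gene, was at 455, 365 and 213 RPKM against 443, 491 and 331 RPKM. *LHCA2*, an antenna gene of photosystem I, was by contrast between 483 and 511 RPKM in all 6 libraries. The touch and wound genes, a sign of handling, had 0 of 16 members at an unadjusted p under 0.05, but 10 intervals inside 2-fold. Replicate 3 was the highest of its group in most of them, such as *TCH3*, a calmodulin-like gene, with 48.7, 22.9 and 74.4 RPKM in 2x wt and 25.7, 25.9 and 70.4 RPKM in 2x *nrpd1*.

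The circadian clock was the list with the widest spread. Of its 11 genes 10 were tested, 3 intervals lay inside 2-fold, 1 gene was higher and 1 lower at an unadjusted p under 0.05, and the list held both the highest and the lowest fold change of all 17 lists. *LHY*, a Myb factor expressed around dawn, was at 4.04, 4.77 and 1.02 RPKM in 2x wt and 15.4, 11.6 and 4.46 RPKM in 2x *nrpd1* (log2 fold change 1.59, SE 0.54, adjusted p = 0.838), and the value was 1.01 without replicate 3 of 2x wt. Its partner *CCA1* was at 9.06, 7.21 and 2.39 RPKM in 2x wt and 14.3, 11.1 and 5.55 RPKM in 2x *nrpd1* (0.78, SE 0.47). In each group replicate 3 was the lowest library of both dawn genes.

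In evening genes replicate 3 stood on the other side. *ELF4*, of the evening complex, was at 3.71, 8.93 and 13.2 RPKM in 2x wt and 1.00, 0.475 and 17.8 RPKM in 2x *nrpd1* (log2 fold change -1.43, SE 0.96). This value depended on single libraries, at -2.73 without replicate 3 of 2x *nrpd1* (adjusted p = 0.0584) and -0.63 without replicate 2. *TOC1*, which represses the dawn genes, was at 35.6, 36.2 and 58.6 RPKM against 23.3, 25.1 and 47.9 RPKM (-0.44, SE 0.27), and *LUX*, also of the evening complex, at 17.7, 21.5 and 25.7 RPKM against 10.7, 12.7 and 27.0 RPKM (-0.43, SE 0.30). In these 3 genes replicate 3 was the highest library of each group, and replicates 1 and 2 of 2x *nrpd1* were the lowest of the 6. Without replicate 3 of 2x *nrpd1*, 3 of the 10 genes were higher (4.47% of all genes were) and 5 lower (5.2% of all genes) at an unadjusted p under 0.05. *ELF3*, the gene of the list with an unadjusted p under 0.05 on the lower side, was at 22.8 to 27.3 RPKM in 2x wt and 17.8 to 21.5 RPKM in 2x *nrpd1* (-0.27, SE 0.10).

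Other lists also moved when replicate 3 of 2x *nrpd1* was left out. Over all genes the share higher at an unadjusted p under 0.05 then rose from 3.21% to 4.47%, and the share lower from 2.43% to 5.2%. Without that library the median of the seed storage list went from 0.03 to -0.25, with 3 genes higher and 2 lower at an unadjusted p under 0.05. The maturation regulators then had 3 genes higher and 1 lower, against 0 with all 6 libraries, and the shoot list had 4 higher, against 1. The root list had 2 higher. The RdDM list had 1 higher and 1 lower among its 23 genes, near the shares over all genes. The median of the touch and wound list went from 0.13 to -0.10.

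The genes called when replicate 3 of 2x *nrpd1* was left out, chosen here after their values had been seen, were also uneven among the 2x *nrpd1* replicates. Of the 19 genes, 4 were higher and 15 lower in the remaining 2x *nrpd1* libraries. In all 15 of the latter replicate 3 was above replicates 1 and 2. In 14 of them it was at or above the lowest 2x wt library. Choosing genes that are called only without replicate 3 favours this pattern, so the counts are a description only. *DIN10*, a dark-inducible raffinose synthase family gene, was at 14.0, 12.5 and 22.5 RPKM in 2x wt and 4.46, 4.02 and 16.2 RPKM in 2x *nrpd1*. *MIOX2*, an inositol oxygenase gene, was at 5.71, 5.30 and 14.9 RPKM against 0.337, 0.892 and 5.42 RPKM. AT3G15450, annotated as an aluminum-induced protein, was at 156, 134 and 180.4 RPKM against 44.4, 50.9 and 154 RPKM. Over all 6 libraries none of these 3 had an adjusted p under 0.8.

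The same genes included *GDH2*, a glutamate dehydrogenase (33.0, 47.4 and 93.7 RPKM in 2x *nrpd1* against 83.7 to 118 in 2x wt), the beta-amylase gene *BMY3* and *BOA*, a clock-associated Myb-like gene. On the higher side *TT4*, chalcone synthase of the flavonoid pathway, was at 40.3, 39.9 and 30.9 RPKM in 2x wt and 72.0, 81.9 and 43.9 RPKM in 2x *nrpd1* (log2 fold change 0.81, adjusted p = 0.779). When replicate 3 was left out of both groups, an alternative chosen after seeing the data, 16 genes were called, of which 12 were among the 19. The additional ones were *LHY*, the dormancy-associated *DYL1*, and *F3H* of the flavonoid pathway with the noncoding RNA AT3G51238 that had nearly equal RPKM. *SUC1*, AT3G28899 and AT3G04230 were called under both of these settings, whereas AT2G01422 was called under the first alone.

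**Figure D5:**
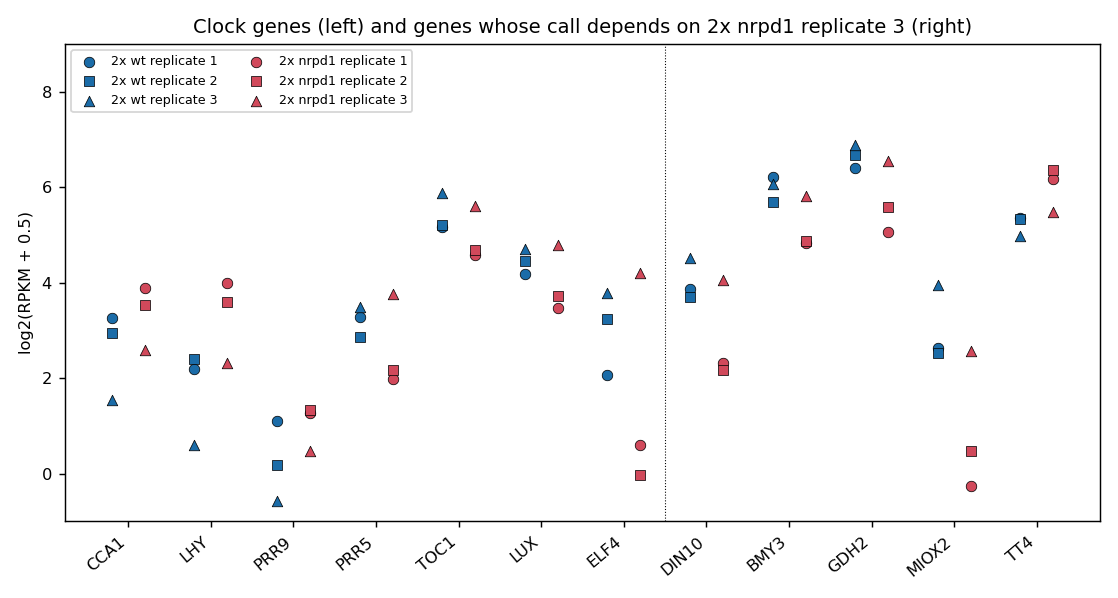
Log2(RPKM + 0.5) of 7 clock genes (left of the dotted line) and 5 genes called without replicate 3 of 2x *nrpd1* (right), for 2x wt (blue) and 2x *nrpd1* (red). Circles, squares and triangles are replicates 1, 2 and 3. In 2x *nrpd1* the circles and squares lie together and apart from the triangle, and for *LHY* and *CCA1* the triangle is the lowest library of its group while for *TOC1*, *LUX* and *ELF4* it is the highest.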

How the data were processed

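Of the 12 poly(A) RNA-seq libraries of dissected embryos, the 6 diploid ones are the subject here, 3 per group. According to the labels and the study's methods, the authors used Trimmomatic for trimming, TopHat2 for mapping to TAIR10 masked for rRNA genes, and GFOLD for counting. TopHat2 was set to report 1 position per read, so levels of near-identical gene copies may not be separable. The authors deposited RPKM per gene and library, whose exact denominator is not given in the sources used here. Low values multiplied by exon length were whole reads within 0.05 for 32.9 to 39.1% of values only, so the reads behind a library were estimated from the step of 1 read, reads per gene are approximate and no count test was run. The 279 plastid and mitochondrial genes are at 0 throughout and were not analysed here.

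Tests used limma 3.58.1 with statmod 1.5.0 in R 4.3.3, two-sided, with an intensity trend, on log2(RPKM + 0.5) after median-ratio scaling of the 6 libraries; no count model was used. The fit was checked on simulated data, with changes placed only in genes well above the filter and the same dispersion for every gene. That check does not cover genes of low RPKM or an uneven library. Intervals are 95% intervals of that fit. The interaction of pollen donor and ploidy used all 12 libraries. Positions, lengths and sequences are from RefSeq's TAIR10.1, read in Python 3.11.15, and figures were drawn with matplotlib 3.10.9. Of the list genes, 2 were dropped because their symbol was not in the reference.

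Named genes were *NRPD1*, those the study names for this pair, the 10 largest increases and decreases among genes without overlap, the 5 smallest p-values, the 10 highest mean RPKM, and in each list the highest RPKM and both extreme fold changes, with other list members and neighbours shown for context. The members, gene lists and tests were chosen with earlier results of these data known. Alternatives were other pseudocounts, filters and scalings, a fit over all 12 libraries, a replicate block, robust moderation and leaving out each library.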

Additional observations from a re-analysis of the deposited data

Results flagged for a closer look

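The effect of the pollen donor was compared between ploidies by the interaction of donor and ploidy over all 12 libraries, as the log2 fold change in triploid minus that in diploid embryos. Of the 27 genes checked, 8 differed at an adjusted p under 0.05, as did 11.7% of all 18561 genes. Many of the 27 were chosen for a large diploid fold change, which the interaction subtracts, so the choice itself favours a difference and the count is given as a description only. The difference was -2.93 for *GSTU4* (AT2G29460), -2.71 for *MLS* (AT5G03860), -2.01 for *ESM1* (AT3G14210) and -1.08 for AT5G35935. *GSTU4* and *ESM1* were lower with the *nrpd1* father in triploid embryos and higher in diploid embryos, *MLS* was lower in both and more so in triploid embryos, and AT5G35935 was higher in both. On the positive side the difference was 1.27 for *MRD1* (AT1G53480), 1.84 for AT4G25707 and 3.55 for the *MIR833a* precursor (AT1G78478), which had at most 4 reads in any diploid library. It was -1.77 for the tRNA gene AT1G28750, which had at most 1 read in any diploid library. Diploid and triploid embryos also differed in age, 6 against 8 DAP. In triploid seeds the pollen donor also went with a change in endosperm cellularization. Ploidy, age and seed development cannot be told apart in these differences.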

How the results depend on the processing

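Of 17472 genes 0 were called. The count was 1 with no filter and 1 with all 12 libraries in one fit (AT5G35935 each time), 0 to 19 when single libraries were left out (AT3G28899 alone without replicate 3 of 2x wt, 19 without replicate 3 of 2x *nrpd1*), and 16 without replicate 3 of both groups, and it was 0 with the other settings. With the replicate block it was 1 (AT2G01422). Genes with an unadjusted p under 0.05 numbered 984, but 365 with all 12 libraries, 1503 with the replicate block and 673 to 1673 when single libraries were left out. Intervals inside 2-fold numbered 16378, and 15800 to 16146 when single libraries were left out. They numbered 15694 with a pseudocount of 0.1 and 16826 with a pseudocount of 1. The cause of these shifts was not tested.

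Samples with the same number deviated together with r of 0.04, 0.25 and 0.29 for replicates 1, 2 and 3. Replicate 1 of 2x *nrpd1* was the only library that correlated better with another number, at 0.12 with replicate 2 of 2x wt. The labels do not state that the numbers mark pairs. The main fit did not take them as pairs, and the replicate block above did. The 59 genes followed through the alternatives gave 920 values, of which 888 kept direction and side of the threshold, 12 became called and 20 turned in sign. Those called were *SUC1*, AT5G35935, AT2G01422, AT3G28899, AT3G04230 and *LHY*. With a pseudocount of 0.1 the fold changes of low genes were larger, such as 4.59 for AT5G35935 and 3.54 for *DOT1* (AT2G36120), without a call. Every turn was of a gene far from the threshold. With quantile normalization *TT12* (AT3G59030) went from -0.014 to 0.0075, and without replicate 3 of both groups *ATML1* (AT4G21750) went from -0.098 to 0.0063 and *SDC* (AT2G17690) from 0.020 to -0.052. When single libraries were left out, the log2 fold change ran from -0.018 to 0.49 for *NCED9* (AT1G78390), -0.16 to 0.018 for *CYCD3;1* (AT4G34160), -0.61 to 0.037 for *ABI5* (AT2G36270), -0.033 to 0.27 for *IKU1* (AT2G35230), -0.21 to 0.20 for *SDC*, -0.72 to 0.052 for *RBCS2B* (AT5G38420), -0.14 to 0.73 for *LHCB1.1* (AT1G29920), -0.14 to 0.12 for *TT12*, -0.065 to 0.23 for *SUC3* (AT2G02860), -0.30 to 0.16 for *WOX2* (AT5G59340), -0.72 to 0.11 for *TCH3* (AT2G41100) and -0.023 to 0.77 for *ZAT10* (AT1G27730).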
